A study of Mus musculus with 12 samples.

Results

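PMEF adipocytes, made from primary mouse embryonic fibroblasts, were compared with adipocytes made from 3T3-L1 cells on 6 of the 12 arrays of a study of fat cell models. The members are the 3 arrays labelled as PMEF and the 3 labelled as 3T3-L1, chosen by their sample titles. 3T3-L1 is an immortal fibroblast line, derived long ago as 1 clone from mouse embryo cells and kept in culture since, that stores fat when stimulated. PMEFs are freshly grown embryo fibroblasts, a mixed population that has not been cloned or immortalised. The other 2 groups of the study, also 3 arrays each, were adipocytes made from mouse embryonic stem (ES) cells and eWAT, fat tissue of healthy wild-type mice. The labels give no genotype alteration for either culture, and say nothing of its mouse strain, sex, passage, medium or day of differentiation. The design text states that each group was measured in biological triplicate. It does not say whether a triplicate is a separate embryo pool, thaw or dish, so the tests below measure the spread between these samples. The source of the cells cannot be told apart from the culture conditions, which may also have differed.

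Fat cell formation runs from a fibroblast-like precursor to a lipid-filled cell. The early factors Cebpb and Cebpd switch on Pparg and Cebpa, which together turn on genes of lipid storage, lipolysis and hormone secretion. Precursors meanwhile shut down much of their collagen-rich matrix. Cultures of such precursors are rarely uniform, and cells that have not filled with lipid stay beside those that have. In whole-culture RNA, fewer cells of a type and less RNA per cell cannot be told apart.

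Transcripts were read on whole-transcript arrays and are given as log2 intensity. A difference is PMEF minus 3T3-L1 in log2 units, from the means of 3 arrays against 3. A difference of 1 is therefore 2-fold. Each difference is given with its moderated standard error (SE), which comes from 1 fit of all 4 groups. The scatter of the ES and eWAT arrays thus enters every SE and every call. Where those arrays varied, the SE can be larger than the spread within the PMEF and 3T3-L1 arrays. A gene rose or fell in PMEF adipocytes where limma gave a Benjamini-Hochberg adjusted p under 0.05 over all 19938 genes.

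The 2 cultures differed at a large share of all genes, which sets the scale for every count below. In total 9985 genes (50.1%) passed, 4450 (22.3%) higher and 5535 (27.8%) lower in PMEF adipocytes. A gene list with counts near these shares differed no more often than genes in general. At least 2-fold differences passed for 2497 genes (12.5%), 1459 higher (7.32%) and 1038 lower (5.21%). The arrays of the 2 groups did not overlap for 56.5% of genes, with PMEF above in 25.8% and below in 30.7%. Arrays of the same group correlated at 0.995 to 0.997 across genes, and PMEF with 3T3-L1 arrays at 0.922 to 0.925. The large differences were mostly rises. At least 8-fold differences numbered 240 higher and 32 lower, and at least 32-fold differences 46 higher and 1 lower. The median over the genes analysed was 6.11 to 6.12 on the 3T3-L1 arrays and 6.32 to 6.35 on the PMEF arrays, so a further scaling moves small differences. Centring each array on its median moved the median difference by -0.22, and centring on reference genes moved it by 0.27. Under these the share of higher genes among those called, 44.6% here, was 23.6% and 76.0%. For at least 2-fold differences that share was 58.4%, against 40.6% and 78.5%. Medians of gene lists that change sign with scaling are given below with their range over 4 other scalings. As a guide to background, the 1027 olfactory receptor genes had a median of 3.67 on these arrays and a 95th percentile of 5.25. Of the at least 2-fold higher genes, 471 (32.3%) had a 3T3-L1 mean under that percentile, and the size of such a difference is imprecise. For at least 2-fold lower genes the PMEF mean was under it for 89 (8.57%).

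The largest rises mostly started from 3T3-L1 levels near background. Sfrp1, a secreted inhibitor of Wnt signalling, read 4.55, 4.13 and 4.12 on the 3T3-L1 arrays and 11.87, 11.81 and 11.57 on the PMEF arrays. Its difference of 7.49 ± 0.17 was the largest rise of a named gene, a 179-fold rise, and ES adipocytes lay between at 10.50 ± 0.15 (mean ± SD, n = 3). Reg1, a lectin of the regenerating family, read 4.50, 4.31 and 4.71 on the 3T3-L1 arrays and 11.94, 11.98 and 11.85 on the PMEF arrays. Efemp1, an elastic fibre protein also called fibulin-3, rose by 6.89 ± 0.10, and Gpx3, the glutathione peroxidase released into plasma, rose by 6.73 ± 0.17. Car3, a carbonic anhydrase abundant in fat, read 6.02, 5.76 and 5.90 on the 3T3-L1 arrays and 12.63, 12.57 and 12.59 on the PMEF arrays. The PMEF arrays lay near the eWAT mean of 13.12 ± 0.01, and no 3T3-L1 array came near it. Further genes of the 20 largest rises were Slfn5 of the Schlafen family (6.72 ± 0.07), the membrane protein Plxdc2 (6.63 ± 0.08), the glutamate receptor subunit Gria3 (6.25 ± 0.09), Ms4a4d (6.09 ± 0.27), the hyaluronan-degrading Cemip (5.76 ± 0.09), the secreted Egfl6 (5.73 ± 0.11) and the LIM-domain binding protein Ldb2 (5.65 ± 0.08).

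The largest falls were fewer and smaller. Lcn2, a secreted lipocalin that binds bacterial iron carriers, read 12.51, 12.47 and 12.45 on the 3T3-L1 arrays and 6.42, 6.47 and 6.06 on the PMEF arrays. All 3T3-L1 arrays were thus far above all PMEF arrays (-6.16 ± 0.24), with ES adipocytes at 10.24 ± 0.06 and eWAT at 7.02 ± 0.67. Atf3, a transcription factor induced by many kinds of stress, read 11.46, 11.34 and 11.45 on the 3T3-L1 arrays and 6.49, 6.63 and 6.51 on the PMEF arrays. Hsd11b1, the enzyme that regenerates active glucocorticoid, read 9.98, 10.02 and 9.90 on the 3T3-L1 arrays and 5.87, 5.93 and 5.75 on the PMEF arrays. Tissue was on the side of the 3T3-L1 cells, at 10.81 ± 0.12, and PMEF adipocytes were the lowest of the 4 groups. Rbp7, a retinol binding protein, was likewise high in 3T3-L1 cells (8.31 ± 0.06) and tissue (8.31 ± 0.32) and low in PMEF (4.94 ± 0.27) and ES adipocytes (4.75 ± 0.29). Other large falls were the secreted carbonic anhydrase Car6 (-4.99 ± 0.13), Ifi202b (-4.31 ± 0.13), the peroxisomal oxidase Acox2 (-3.97 ± 0.14), the splicing factor Cwc22 (-3.85 ± 0.08), Xlr (-3.85 ± 0.25), the skin adhesion protein Cdsn (-3.83 ± 0.12), the retinol dehydrogenase family member Dhrs9 (-3.71 ± 0.09), the desaturase Scd3 (-3.64 ± 0.13), Steap1 (-3.61 ± 0.13), the calcium pump Atp2a3 (-3.43 ± 0.07) and Ghrh, the growth hormone releasing hormone (-3.27 ± 0.13). In 24 of the 40 genes with the largest differences the lower group lay under the background percentile.

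**Figure D1:**
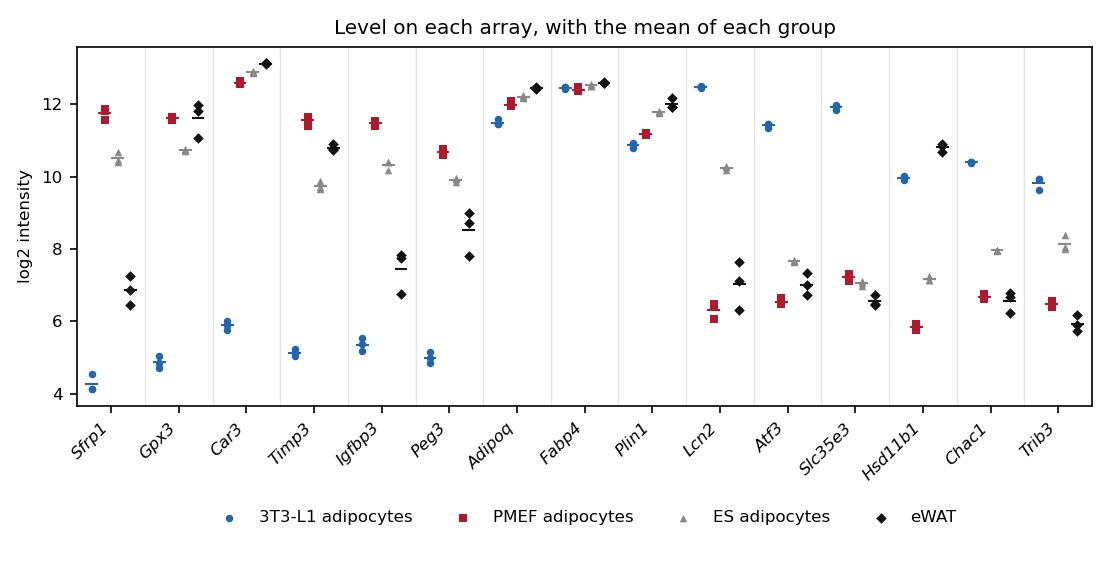
Level of 15 genes on every array, in log2 intensity, with a bar at the mean of each group of 3 arrays (blue circles 3T3-L1, red squares PMEF, grey triangles ES adipocytes, black diamonds eWAT). Adipoq, Fabp4 and Plin1 were high in all 4 groups, and the 3T3-L1 and PMEF arrays stood far apart for the other 12 genes.

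Both cultures carried the defining genes of fat cells at high level. Adipoq, the fat cell hormone adiponectin, read 11.44, 11.60 and 11.44 on the 3T3-L1 arrays and 12.08, 11.95 and 11.94 on the PMEF arrays. The groups did not overlap, but the rise was small at 0.50 ± 0.07. Fabp4, which carries fatty acids inside fat cells, read 12.47, 12.47 and 12.41 on the 3T3-L1 arrays and 12.47, 12.36 and 12.36 on the PMEF arrays. Its groups overlapped, and the difference of -0.05 ± 0.06 did not pass (limma adjusted p = 0.564). Plin1, the lipid droplet coat, rose by 0.31 ± 0.08, and the lipoprotein lipase gene Lpl, at -0.11 ± 0.06, did not pass. With arrays centred on their medians Plin1 (0.09) did not pass, and Fabp4 and Lpl passed as lower there (-0.27 and -0.33) but as higher with centring on reference genes (0.22 and 0.16). The droplet protein Cidec and the lipase Lipe, the remaining adipocyte markers beside Pparg, were at 12.30 ± 0.03 and 11.16 ± 0.13 in 3T3-L1 cells and at 12.11 ± 0.06 and 11.42 ± 0.10 in PMEF. All 6 markers stood far above background in both cultures, as the labels would have it.

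The regulators of fat cell formation moved in both directions. Of 21 measured, 9 rose and 8 fell, against 22.3% and 27.8% of all genes, with a median of 0.13 (-0.09 to 0.40 under the other scalings). Cebpa, which keeps the mature fat cell programme on, read 7.55, 7.69 and 7.45 on the 3T3-L1 arrays and 9.53, 9.85 and 9.63 on the PMEF arrays. Its rise of 2.10 ± 0.11 put PMEF nearer to ES adipocytes (10.61 ± 0.10) and eWAT (10.43 ± 0.16) than 3T3-L1 was. Srebf1, which drives lipogenic enzymes, rose by 1.59 ± 0.07. Cebpb, an early factor of the cascade, read 8.95, 8.96 and 8.97 on the 3T3-L1 arrays and 7.50, 7.51 and 7.35 on the PMEF arrays and fell by 1.5 ± 0.07. Pparg, the central regulator, was 10.60, 10.64 and 10.55 on the 3T3-L1 arrays and 10.35, 10.14 and 10.41 on the PMEF arrays. It fell by 0.29 ± 0.08 without overlap of the groups, and stood at -0.03 with arrays centred on reference genes, where it no longer passed. Bcl6 (-1.44 ± 0.15), the glucocorticoid-induced Klf15 (-1.09 ± 0.10) and Gata3 (-0.85 ± 0.14), which restrains fat cell formation, also fell, and Nfib (0.87 ± 0.08), the glucocorticoid receptor Nr3c1 (0.80 ± 0.08) and Ebf1 (0.79 ± 0.07) rose.

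Secreted products of fat cells split by gene. Among 14 measured, 6 rose and 5 fell, against 22.3% and 27.8% of all genes. The median was 0.13 (-0.09 to 0.40 under the other scalings). Rbp4, the retinol carrier of plasma, read 5.30, 4.78 and 5.0 on the 3T3-L1 arrays and 8.78, 8.67 and 8.73 on the PMEF arrays. Its rise of 3.71 ± 0.11 left PMEF adipocytes still well under eWAT at 11.87 ± 0.10. Lep, which encodes leptin, rose by 1.23 ± 0.26 between levels of 4.52 ± 0.37 and 5.75 ± 0.28, against 10.44 ± 0.62 in tissue, and Retn (resistin) rose by 0.59 ± 0.07. In the other direction, Agt, the angiotensin precursor, read 11.56, 11.60 and 11.50 on the 3T3-L1 arrays and 9.44, 9.48 and 9.71 on the PMEF arrays. Fgf21, a hormone of fasting and stress, fell by 1.87 ± 0.15, and Nampt, an enzyme of NAD synthesis that is also secreted, by 0.81 ± 0.10.

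Genes for taking up, storing and releasing fat held a few large single differences. The scale for each list of this paragraph is 22.3% of all genes higher and 27.8% lower. In lipolysis 7 of 11 rose and 1 fell, with a median of 0.45. Mgll, which cleaves monoglycerides in the last step, read 7.65, 7.92 and 7.68 on the 3T3-L1 arrays and 10.46, 10.33 and 10.47 on the PMEF arrays. Pnpla3, a lipase that also follows feeding, rose by 2.61 ± 0.09, and Npr3, which clears natriuretic peptides, by 1.94 ± 0.13. Among lipid droplet proteins 6 of 16 rose and 7 fell (median -0.13, -0.35 to 0.14 under the other scalings). Plin5 (1.21 ± 0.12) and the seipin gene Bscl2 (0.85 ± 0.06) rose, and Hilpda, an inhibitor of lipolysis induced by low oxygen (-1.81 ± 0.11), and Cidea (-1.41 ± 0.12) fell. Of 10 genes for fatty acid uptake and binding, 2 rose and 3 fell, near the shares of all genes. The median was -0.11 (-0.33 to 0.16 under the other scalings). The 2 that rose did so by large amounts, with the muscle-type carrier Fabp3 at 2.84 ± 0.13 and the transporter Slc27a1 at 2.07 ± 0.09. Acsl4, which activates arachidonic acid, read 10.47, 10.39 and 10.42 on the 3T3-L1 arrays and 8.34, 8.32 and 8.33 on the PMEF arrays.

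In fatty acid and triglyceride synthesis 10 of 22 rose and 6 fell, with a median of 0.21 (-0.01 to 0.48 under the other scalings). Steps of the same pathway moved in both directions. Acly, which makes cytosolic acetyl-CoA, rose by 1.06 ± 0.09, Acaca, the first committed step, by 0.73 ± 0.07, and Fasn, fatty acid synthase, by 0.58 ± 0.07. Thrsp, a lipogenic nuclear protein, rose by 1.65 ± 0.11 and Mlxipl, the glucose-sensing factor ChREBP, by 0.90 ± 0.08. The other carboxylase Acacb fell by 0.46 ± 0.09 and the desaturase Scd2 by 0.34 ± 0.07, and neither passed with arrays centred on reference genes. Dgat2 and Dgat1, which close triglyceride assembly, were at -1.22 ± 0.08 and -0.54 ± 0.08. Among 17 genes of fatty acid oxidation 4 rose and 8 fell, against 22.3% and 27.8% of all genes (median -0.10, -0.32 to 0.17 under the other scalings). The peroxisomal Ehhadh (2.74 ± 0.13) and the nuclear receptor Ppara (1.86 ± 0.17) rose, and the mitochondrial coactivator Ppargc1a (-1.87 ± 0.09) and Pdk4, which spares glucose (-1.55 ± 0.09), fell. Ucp1, the uncoupling protein of brown fat, read 4.69, 4.62 and 4.63 on the 3T3-L1 arrays and 7.33, 6.43 and 6.72 on the PMEF arrays. These levels lay around the background percentile in 3T3-L1 cells. The thermogenic list as a whole had 4 of 14 higher and 5 lower, against 22.3% and 27.8% of all genes (median -0.17, -0.39 to 0.10 under the other scalings). Cholesterol synthesis had 8 of 19 higher and 6 lower (median 0.11, -0.11 to 0.38 under the other scalings), from Hsd17b7 at 0.74 ± 0.10 to Sqle at -1.13 ± 0.11.

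Genes for the breakdown of branched-chain amino acids, a mitochondrial fuel of fat cells, were lower in PMEF adipocytes almost throughout. Of 17 genes 15 fell and 1 rose, with a median of -1.12, against 27.8% of all genes that fell. Bcat2, the mitochondrial transaminase that starts the pathway, read 10.58, 10.49 and 10.51 on the 3T3-L1 arrays and 8.72, 8.91 and 8.74 on the PMEF arrays. The groups were far apart, at -1.74 ± 0.08. The dehydrogenase subunits Bckdhb (-1.42 ± 0.08) and Dbt (-1.20 ± 0.07) fell, as did Mccc1 of leucine breakdown (-1.25 ± 0.09) and Aldh6a1 of valine breakdown (-1.19 ± 0.07). Pcca, a subunit of propionyl-CoA carboxylase, was the exception at 0.48 ± 0.08.

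Genes of insulin signalling moved in both directions. All 17 measured genes passed, 7 higher and 10 lower, against 22.3% and 27.8% of all genes, with a median of -0.33. Grb10, an imprinted adaptor that restrains the insulin receptor, read 5.0, 4.88 and 4.78 on the 3T3-L1 arrays and 10.56, 10.59 and 10.64 on the PMEF arrays. The docking protein Irs1 rose by 1.74 ± 0.06 while its relative Irs2 fell by 1.15 ± 0.13. Slc2a4, the insulin-responsive glucose transporter, read 10.01, 10.14 and 10.05 on the 3T3-L1 arrays and 8.87, 8.86 and 9.09 on the PMEF arrays. The basal transporter Slc2a1 (-1.66 ± 0.07) and the hexokinase Hk2 (-2.27 ± 0.11) fell as well.

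Extracellular matrix genes were higher in PMEF adipocytes nearly throughout. Of 23 collagens 21 rose and none fell (limma, with 0 lower at an unadjusted p under 0.05 and 0 in a fit of the 6 arrays alone), against 22.3% of all genes that rose, and Col23a1 (0.20 ± 0.11) and Col4a5 (-0.14 ± 0.09) did not pass. With arrays centred on their medians Col4a5 passed as lower (-0.36), and Col4a1 (0.09) and Col4a6 (0.22) did not pass. Col1a1, the main chain of fibrillar collagen, read 9.53, 9.41 and 9.39 on the 3T3-L1 arrays and 12.17, 12.31 and 12.28 on the PMEF arrays. All PMEF arrays stood well above all 3T3-L1 arrays (2.81 ± 0.09) and above the eWAT mean of 10.49 ± 0.17. Col8a1, a short-chain collagen, read 5.72, 5.53 and 5.48 on the 3T3-L1 arrays and 10.92, 11.02 and 10.72 on the PMEF arrays, and no other group reached the PMEF level (ES 6.79 ± 0.07, eWAT 6.45 ± 0.24).

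Among fibrillar collagens Col3a1 rose by 2.85 ± 0.08, Col1a2 by 2.47 ± 0.08, Col5a2 by 2.37 ± 0.07, Col5a1 by 1.59 ± 0.07 and Col11a1 by 1.54 ± 0.09. The fibril-associated Col12a1 and Col14a1 rose by 4.72 ± 0.09 and 4.29 ± 0.12. The chains of basement membranes, the sheets that wrap each fat cell, had smaller rises apart from Col15a1. They were 2.98 ± 0.16 for Col15a1, 0.83 ± 0.08 for Col18a1, 0.62 ± 0.06 for Col4a2 and 0.31 ± 0.07 for Col4a1. The beaded-filament chains Col6a1, Col6a2 and Col6a3 rose by 0.75 ± 0.06, 1.04 ± 0.07 and 0.44 ± 0.06. The remaining members, Col16a1, Col8a2, Col2a1, Col4a6 and Col5a3, rose by between 0.43 and 0.66.

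Non-collagen matrix followed. In the list of glycoproteins and cross-linking enzymes 26 of 27 rose and none fell (median 2.32), and all 12 leucine-rich proteoglycans rose by at least 2-fold (median 2.11, against 7.32% of all genes). Lum (lumican), which spaces collagen fibrils, read 5.47, 5.41 and 5.67 on the 3T3-L1 arrays and 11.45, 11.37 and 11.38 on the PMEF arrays. Decorin (Dcn), another fibril binder, rose by 2.87 ± 0.08 to above the level of tissue (12.66 ± 0.05 in PMEF, 12.44 ± 0.12 in eWAT). Fibromodulin (Fmod) rose by 4.84 ± 0.10 and Podn by 4.80 ± 0.10. Elastic fibre genes were among the largest rises, with Mfap4 at 5.30 ± 0.09, the fetal fibrillin Fbn2 at 4.79 ± 0.09 and elastin, Eln, at 4.22 ± 0.11. Tnc, tenascin C of growing and healing tissue, read 5.19, 4.97 and 5.04 on the 3T3-L1 arrays and 10.33, 10.26 and 9.91 on the PMEF arrays. Of matrix proteases and their inhibitors 13 of 19 rose and 2 fell (median 1.47). The inhibitors Timp3 (6.42 ± 0.09), Timp1 (3.1 ± 0.16) and Timp2 (3.06 ± 0.09) rose together with the protease Mmp2 (2.86 ± 0.08), and Mmp11 (-1.83 ± 0.09) and Mmp13 (-1.71 ± 0.10) fell.

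**Figure D2:**
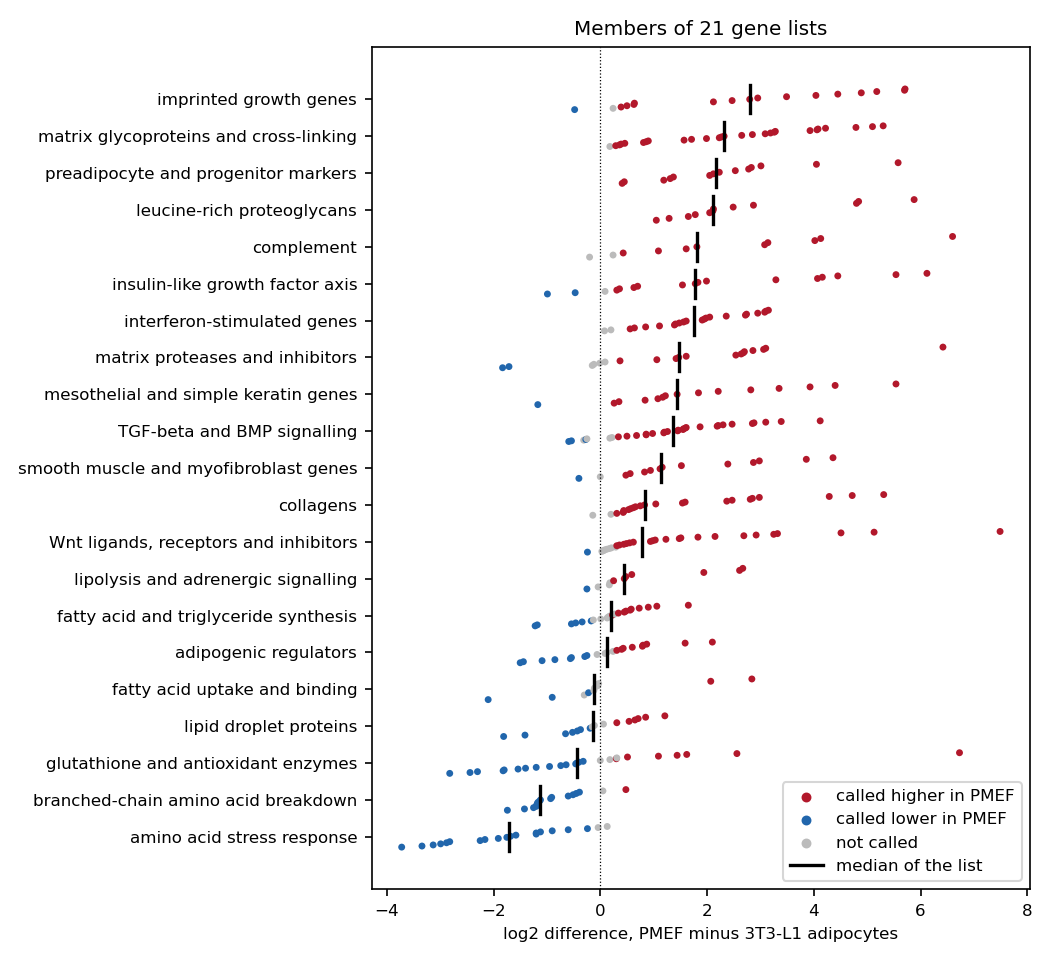
Log2 difference, PMEF minus 3T3-L1 adipocytes, of every measured member of 21 gene lists. Each point is 1 gene (red rose, blue fell, grey did not pass) and the black bar is the median of the list. Lists from imprinted growth genes (2.80) down to Wnt genes (0.78) have medians to the right of 0, though several hold members to the left. The medians of glutathione and antioxidant enzymes (-0.44), branched-chain amino acid breakdown and the amino acid stress response lie to the left. The medians between -0.13 and 0.21, among them those of adipogenic regulators and lipid droplet proteins, change sign under some scalings.

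Precursor and fibroblast surface markers were higher in the PMEF cultures. All 14 measured preadipocyte and progenitor markers rose (median 2.17). Cd34, a surface marker of fat precursors and vessels, read 4.86, 4.89 and 5.02 on the 3T3-L1 arrays and 10.40, 10.55 and 10.54 on the PMEF arrays. The PMEF arrays overlapped those of eWAT (10.35 ± 0.20), and 3T3-L1 cells were near background. Thy1, a fibroblast surface protein, read 7.71, 7.75 and 7.76 on the 3T3-L1 arrays and 11.74, 11.79 and 11.82 on the PMEF arrays, the highest of the 4 groups. The growth factor receptor Pdgfrb rose by 3.01 ± 0.07, and Icam1 and Eng rose by 2.83 ± 0.14 and 2.78 ± 0.12. Contractile genes of myofibroblasts moved with them, in that 12 of 14 rose and 1 fell (median 1.14). Acta2, smooth muscle actin, read 8.84, 9.01 and 8.79 on the 3T3-L1 arrays and 11.79, 11.86 and 11.59 on the PMEF arrays. Myl9 (4.36 ± 0.15), Tagln (3.86 ± 0.14), Actg2 (2.98 ± 0.12) and Cnn1 (2.39 ± 0.17) rose too, and Des, the muscle intermediate filament, was at -0.40 ± 0.10.

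Genes of the mesothelium, the lining of body cavities, were also higher in PMEF cultures, at 14 of 15 with 1 lower (median 1.44). The mean of this list was 5.38 to 5.51 on the 3T3-L1 arrays and 7.39 to 7.41 on the PMEF arrays. Upk3b, a uroplakin of the lining, read 5.34, 5.58 and 5.49 on the 3T3-L1 arrays and 8.81, 9.07 and 8.57 on the PMEF arrays. Of the other defining markers, Krt19 rose by 2.21 ± 0.16 and Msln (mesothelin) by 1.84 ± 0.10, and Wt1, at 0.84 ± 0.09, was faint in both (5.76 ± 0.02 and 6.6 ± 0.04). Macrophage genes had 7 of 18 higher and 2 lower, against 22.3% and 27.8% of all genes (median 0.17, -0.05 to 0.44 under the other scalings). Lyz2, the lysozyme of macrophages, read 4.79, 5.30 and 5.35 on the 3T3-L1 arrays and 8.41, 7.82 and 8.02 on the PMEF arrays. It had the largest rise of the list but stayed under eWAT (11.50 ± 0.36). C1qb (1.48 ± 0.24), Mrc1 (1.27 ± 0.21), Adgre1 (0.82 ± 0.26) and Csf1r (0.49 ± 0.15) rose too, and C1qa (0.41 ± 0.20) did not pass. The PMEF arrays of C1qa (5.75 to 5.9) nevertheless lay above its 3T3-L1 arrays (5.39 to 5.44). Its SE includes the scatter of the eWAT arrays, which had an SD of 0.58. In PMEF cultures Csf1r was at 5.45 ± 0.18 and Adgre1 at 4.98 ± 0.24, near background, and C1qa was at 5.83 ± 0.07. The list mean was 5.23 to 5.34 on the 3T3-L1 and 5.52 to 5.57 on the PMEF arrays. Cd68, a lysosomal protein of macrophages that other cells also carry, went the other way, with 10.58, 10.37 and 10.30 on the 3T3-L1 arrays and 7.19, 7.05 and 7.08 on the PMEF arrays.

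Genes of other cell types were mostly near background in both cultures. Endothelial genes had 8 of 18 higher and 1 lower, with a list mean of 5.33 to 5.36 on the 3T3-L1 and 5.93 to 6.0 on the PMEF arrays. Flt1, a receptor for vascular growth factor, rose by 3.57 ± 0.07. Of the defining markers Cdh5 (0.45 ± 0.11) and Emcn (0.91 ± 0.18) rose, Pecam1 fell (-0.78 ± 0.11) and Tie1 (0.12 ± 0.11) did not pass. In PMEF cultures Cdh5, Emcn, Pecam1 and Tie1 were at 5.55 ± 0.07, 4.75 ± 0.06, 5.05 ± 0.22 and 5.32 ± 0.06. Among class II antigen presentation genes 2 of 7 rose and 2 fell, and among lymphocyte genes 2 of 11 rose. Over all genes 22.3% rose and 27.8% fell. Of 14 skeletal muscle genes 0 passed with limma, 3 had an unadjusted p under 0.05, and 0 passed in a fit of the 6 arrays alone. With other scalings 2 to 4 of these passed as lower or 10 as higher. Neuronal and glial genes had 5 of 13 higher, led by Ngfr (1.90 ± 0.14) and Stmn2 (1.47 ± 0.21), and cartilage and bone genes 3 of 10 higher and 2 lower, with Alpl at -2.12 ± 0.11. The part of these other cells in the matrix, progenitor and contractile differences was not tested.

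Imprinted growth genes, which are expressed from 1 parental copy and are most active in the embryo, were far higher in PMEF adipocytes. Of 17 measured 15 rose and 1 fell, with the highest median of all 43 lists at 2.80. Peg3, a paternally expressed zinc finger gene, read 4.98, 4.84 and 5.15 on the 3T3-L1 arrays and 10.77, 10.60 and 10.69 on the PMEF arrays. Igf2, the fetal growth factor, read 6.99, 7.17 and 6.95 on the 3T3-L1 arrays and 11.47, 11.56 and 11.42 on the PMEF arrays, and the 3T3-L1 arrays lay within the range of eWAT (7.25 ± 0.40), while ES adipocytes were at 11.75 ± 0.03. Plagl1, a zinc finger regulator of other imprinted genes, rose by 4.89 ± 0.10, and the cell cycle inhibitor Cdkn1c by 2.80 ± 0.07. Peg10, a placental gene of retroviral origin, was the exception at -0.48 ± 0.09.

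The imprinted region from Dlk1 to Dio3 on chromosome 12 stood out as a block, in which 45 of 47 measured genes rose and none fell (median 1.62). Its genes outside the lists were singled out after their values were seen. From the maternal copy this region makes the long RNA Meg3, Rian and a long series of microRNAs, and from the paternal copy Dlk1, which holds back fat cell formation. Of the 40 microRNA genes of the region on the array, 38 rose (median 1.53). Of the other 260 microRNA genes 48 rose and 40 fell (median 0.01). Meg3 read 6.10, 6.09 and 5.95 on the 3T3-L1 arrays and 11.23, 11.18 and 11.28 on the PMEF arrays, and Dlk1 read 9.24, 9.19 and 9.17 on the 3T3-L1 arrays and 11.28, 11.35 and 11.31 on the PMEF arrays. Among the microRNA genes Mir382 read 3.36, 3.45 and 3.51 on the 3T3-L1 arrays and 7.96, 7.52 and 7.38 on the PMEF arrays and rose by 4.18 ± 0.12. Mir380 rose by 3.98 ± 0.13 and Mir377 by 3.67 ± 0.12. All 3 started from 3T3-L1 levels under the background percentile of 5.25, so their order is imprecise. Of the 38 microRNA genes that rose, 26 had a 3T3-L1 mean under that percentile and 12 had both means under it. The groups did not overlap for Meg3, Dlk1, Mir382, Mir380 or Mir377. The array probes read the hairpin region of the primary transcript and cannot tell the mature arms apart.

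The mature products of Mir382, Mir380 and Mir377, shown as examples with large differences, carry 6 different seeds. The sequences are from RefSeq (GRCm38.p6), all on the plus strand of chromosome 12, with the seed, bases 2 to 8 that pair with targets, in capitals.
mmu-miR-382-5p: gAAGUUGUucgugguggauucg
mmu-miR-382-3p: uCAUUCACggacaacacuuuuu
mmu-miR-380-5p: aUGGUUGAccauagaacaugcg
mmu-miR-380-3p: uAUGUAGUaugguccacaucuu
mmu-miR-377-5p: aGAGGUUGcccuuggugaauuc
mmu-miR-377-3p: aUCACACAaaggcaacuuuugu

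All 40 microRNA genes matched a RefSeq entry, with 76 mature sequences between them. Only 2 seeds were carried by more than 1 of these 76. The first, AUGUAAC, joins the 3′ arms of Mir379 (2.92 ± 0.23) and Mir411 (2.22 ± 0.28). The second, UGGAUAU, joins the 5′ arms of Mir376b (2.46 ± 0.14) and Mir376c (0.82 ± 0.18).
mmu-miR-379-3p: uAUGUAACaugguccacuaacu
mmu-miR-411-3p: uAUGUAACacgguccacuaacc
mmu-miR-376b-5p: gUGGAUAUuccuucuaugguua
mmu-miR-376c-5p: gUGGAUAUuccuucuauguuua

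**Figure D3:**
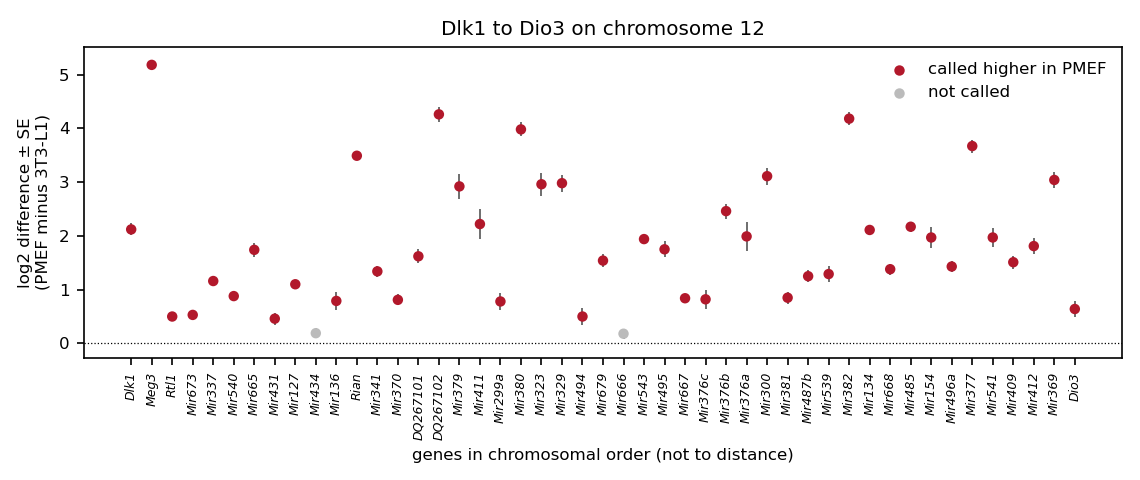
Log2 difference ± SE, PMEF minus 3T3-L1 adipocytes, of the 47 measured genes from Dlk1 to Dio3, in chromosomal order but not to distance. Red points rose and grey points did not pass, and every point but 2 is red, from below 1 up to 5.18 at Meg3.

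Insulin-like growth factors and their binding proteins were higher as well, at 14 of 17 with 2 lower (median 1.78). Igf1, a growth factor that supports fat cell formation, read 6.62, 6.83 and 6.37 on the 3T3-L1 arrays and 10.76, 10.67 and 10.61 on the PMEF arrays and rose by 4.07 ± 0.13. The carrier Igfbp3 read 5.54, 5.17 and 5.36 on the 3T3-L1 arrays and 11.54, 11.51 and 11.39 on the PMEF arrays. Igfbp5 rose by 5.54 ± 0.14 and Igfbp6, which favours binding of Igf2, by 4.16 ± 0.12. The RNA binding proteins of fetal growth, Igf2bp1 (-0.99 ± 0.12) and Igf2bp3 (-0.47 ± 0.09), were the 2 that fell.

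Wnt signals hold back fat cell formation, and secreted inhibitors counter them. In the list of Wnt ligands, receptors and inhibitors 21 of 30 genes rose and 1 fell (median 0.78), and the largest rises were inhibitors and receptors rather than Wnt ligands. Sfrp2, a secreted inhibitor like Sfrp1, read 6.45, 6.43 and 6.54 on the 3T3-L1 arrays and 11.66, 11.56 and 11.60 on the PMEF arrays. Dkk3 rose by 3.25 ± 0.10, the receptor Fzd2 by 3.32 ± 0.06 and Lgr5, the receptor for R-spondins, by 4.51 ± 0.11. No Wnt ligand was among the 5 largest rises.

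In TGF-beta and BMP signalling 25 of 32 rose and 3 fell (median 1.35). Acvr1c, the receptor ALK7 of mature fat cells, read 4.29, 4.21 and 4.59 on the 3T3-L1 arrays and 8.47, 8.51 and 8.47 on the PMEF arrays. ES adipocytes (9.65 ± 0.13) and eWAT (10.21 ± 0.06) were higher still. The ligand Bmp4 rose by 3.39 ± 0.17, the activin subunit Inhba by 2.85 ± 0.11, the latency protein Ltbp2 by 3.1 ± 0.08 and the secreted Fstl1 by 2.88 ± 0.08. Id1, a target of BMP signals, and Gdf5 fell by 0.59 ± 0.08 and 0.54 ± 0.11.

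Genes of hormone handling differed between the cultures too. Of 18 genes of steroid, retinoid and angiotensin handling 12 rose and 3 fell (median 0.93). Agtr2, the angiotensin receptor typical of fetal mesenchyme, read 4.65, 5.09 and 4.94 on the 3T3-L1 arrays and 11.10, 11.09 and 10.96 on the PMEF arrays. Angiotensin converting enzyme, Ace, rose by 5.36 ± 0.16, the other receptor Agtr1a by 3.94 ± 0.09 and the retinoic acid binding protein Crabp1 by 3.99 ± 0.13, while the precursor Agt fell, as given above. Among 25 nuclear receptors and clock genes 6 rose and 11 fell, against 22.3% and 27.8% of all genes (median -0.03, -0.25 to 0.24 under the other scalings). The thyroid hormone receptor Thrb was at 2.81 ± 0.11 and the clock repressor Cry1 at -1.36 ± 0.07.

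Hox genes keep a record of the body level from which a cell came, and the largest differences among them lay in the Hoxc cluster. Over all clusters 18 of 37 rose and 6 fell (median 0.28), which became 13 and 11 with arrays centred on their medians and 27 and 3 with centring on reference genes. In the Hoxc cluster 7 of 9 rose and 1 fell, with a median of 2.10, against 0.04, 0.43 and 0.06 in the Hoxa, Hoxb and Hoxd clusters. The medians of Hoxa and Hoxd, near 0, change sign with the scaling, and the difference between clusters was not tested. Hoxc8 read 5.55, 5.38 and 5.27 on the 3T3-L1 arrays and 10.46, 10.52 and 10.49 on the PMEF arrays. The PMEF arrays lay within the range of eWAT (10.51 ± 0.16), and 3T3-L1 cells were near background.

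Along the cluster Hoxc4 rose by 1.32 ± 0.13, Hoxc5 by 2.54 ± 0.14, Hoxc6 by 3.94 ± 0.10, Hoxc9 by 2.40 ± 0.11 and Hoxc10 by 2.10 ± 0.11. Hoxc13, the last gene, read 6.48, 6.45 and 6.55 on the 3T3-L1 arrays and 4.97, 5.14 and 5.36 on the PMEF arrays and fell by 1.34 ± 0.11. In the other clusters the largest rises were Hoxb5 (1.51 ± 0.14), Hoxa9 (1.12 ± 0.07), Hoxa10 (1.06 ± 0.13) and Hoxb9 (1.05 ± 0.09), and the largest falls Hoxd9 (-0.76 ± 0.11) and Hoxd8 (-0.58 ± 0.10). Of the remaining 24 Hox genes 8 rose by at most 0.73, 3 fell by at most 0.34 and 13 did not pass, and those under 0.27 change sign with some scalings. Other patterning regulators of mesoderm had 17 of 36 higher and 8 lower, against 22.3% and 27.8% of all genes (median 0.26). Meox2, a homeobox gene of somites and limb muscle precursors, read 4.05, 4.33 and 4.02 on the 3T3-L1 arrays and 8.49, 8.38 and 8.33 on the PMEF arrays. Osr1 (2.23 ± 0.20), Tbx15 (2.19 ± 0.13), Tbx5 (1.89 ± 0.12) and Prrx2 (1.85 ± 0.10) rose, and Eya1 (-1.79 ± 0.10), Foxd1 (-1.72 ± 0.09), Foxc1 (-1.66 ± 0.13) and Foxc2 (-1.30 ± 0.12) fell.

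**Figure D4:**
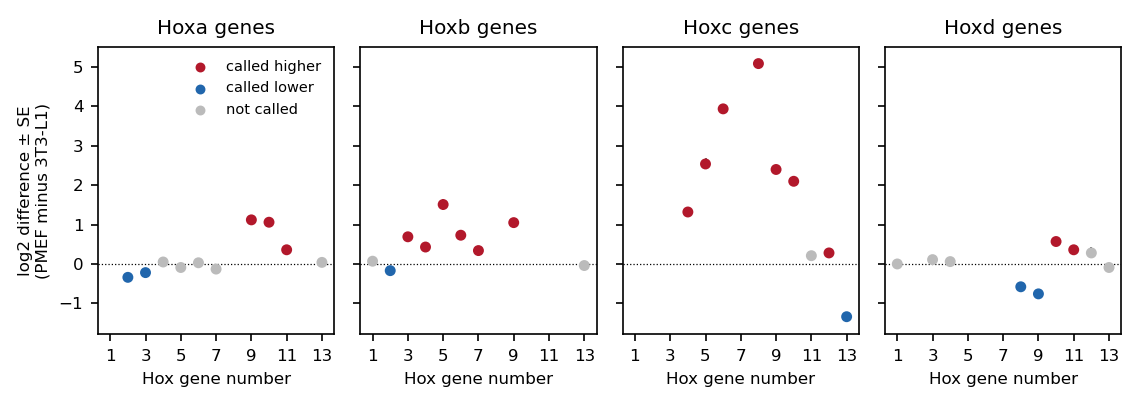
Log2 difference ± SE, PMEF minus 3T3-L1 adipocytes, of the 37 measured Hox genes by cluster and gene number. Points rise along Hoxc4 to Hoxc8, reach 5.09 at Hoxc8 and end below 0 at Hoxc13, while most points of the other clusters lie near 0 (red rose, blue fell, grey did not pass).

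Interferon-stimulated genes, the antiviral programme that interferon switches on, were higher in PMEF adipocytes. Of 22 measured 20 rose and none fell (median 1.76). Ifi202b, an interferon-activated gene that the list does not hold, went the other way (-4.31 ± 0.13), as given above. Ifit3, which binds viral RNA complexes, read 8.40, 7.41 and 6.72 on the 3T3-L1 arrays and 10.28, 10.76 and 10.93 on the PMEF arrays. The RNA sensor Ifih1 read 5.09, 5.35 and 5.38 on the 3T3-L1 arrays and 8.08, 8.46 and 8.54 on the PMEF arrays, and Oasl2 of the oligoadenylate synthase family rose by 3.1 ± 0.31. Gbp3 (2.95 ± 0.19) and Ifit1 (2.74 ± 0.41) rose too, and Mx1, at 0.08 ± 0.28, did not pass. Class I antigen presentation followed to a smaller extent, with 8 of 10 higher and 1 lower (median 0.46), led by H2-Q4 (1.96 ± 0.16) and the peptide transporter Tap1 (1.67 ± 0.14). The list mean of the interferon genes ran from 7.77 to 8.29 across the PMEF arrays, a wider range than 6.22 to 6.4 on the 3T3-L1 arrays.

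The promoters of these genes were searched for the core letters of the interferon-stimulated response element. The letters GAAANNGAA, on either strand, occurred within 250 bases before to 50 after the start in 9 of the 15 interferon genes with a RefSeq promoter (60.0%), against 9.76% of 27025 genes. The 250 bases upstream of Ifit3 and Ifit1, the pair with 3 matches each, are shown 5′ to 3′ on the gene's strand, with matches in capitals. They lie at chr19:34583279-34583528 and chr19:34640639-34640888 on the plus strand of GRCm38.p6, and 2 of the matches of Ifit1 overlap.
Ifit3: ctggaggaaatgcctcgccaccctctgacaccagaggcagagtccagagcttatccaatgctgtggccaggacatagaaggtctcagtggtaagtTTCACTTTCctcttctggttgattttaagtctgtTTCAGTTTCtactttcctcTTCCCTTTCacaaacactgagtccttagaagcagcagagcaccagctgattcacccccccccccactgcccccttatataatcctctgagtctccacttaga
Ifit1: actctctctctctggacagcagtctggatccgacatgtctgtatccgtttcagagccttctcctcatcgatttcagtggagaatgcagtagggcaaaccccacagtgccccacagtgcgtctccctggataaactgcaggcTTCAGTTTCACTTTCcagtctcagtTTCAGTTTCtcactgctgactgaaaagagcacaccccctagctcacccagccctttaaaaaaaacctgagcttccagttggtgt

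All 6 matches are on the opposite strand, where they read as the reverse complement. A match is a description of these letters and shows no binding.

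Innate defence proteins outside the interferon list moved in both directions. Complement had 9 of 11 higher and none lower (median 1.81). Serping1, the inhibitor of the first complement protease, read 4.99, 5.27 and 4.69 on the 3T3-L1 arrays and 11.65, 11.61 and 11.50 on the PMEF arrays. The PMEF arrays overlapped those of eWAT (11.47 ± 0.22). The protease C1s1 rose by 4.02 ± 0.11, the surface inhibitor Cd55 by 4.13 ± 0.13 and C2 by 3.14 ± 0.12. Chemokines and acute phase proteins had 16 of 25 higher and 4 lower (median 0.64). Ccl11, the attractant of eosinophils, read 6.29, 5.84 and 6.02 on the 3T3-L1 arrays and 9.44, 9.56 and 9.41 on the PMEF arrays, and Ccl7 and Ccl8, which attract monocytes, rose by 2.07 ± 0.40 and 1.96 ± 0.36. Apart from Lcn2, Cxcl1 (-1.20 ± 0.11) and Il6 (-0.87 ± 0.10) fell.

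Genes of the amino acid stress response were lower in PMEF adipocytes. This response is driven by Atf4, which cells translate when amino acids run short or proteins misfold, and it raises amino acid synthesis, uptake and one-carbon metabolism. Of 20 genes 18 fell and none rose, with the lowest median of all 43 lists at -1.71. Chac1, which degrades glutathione, read 10.38, 10.39 and 10.40 on the 3T3-L1 arrays and 6.62, 6.64 and 6.76 on the PMEF arrays. The pseudokinase Trib3 read 9.92, 9.64 and 9.92 on the 3T3-L1 arrays and 6.50, 6.39 and 6.56 on the PMEF arrays, and Ddit3, the stress factor CHOP, read 11.20, 11.22 and 11.15 on the 3T3-L1 arrays and 8.17, 8.04 and 7.97 on the PMEF arrays. For each of these, 3T3-L1 was the highest of the 4 groups, and ES adipocytes lay between it and PMEF (7.96 ± 0.01, 8.14 ± 0.21 and 9.69 ± 0.11). The one-carbon enzyme Mthfd2 fell by 2.99 ± 0.17, and the amino acid transporters Slc7a5 and Slc7a11 by 2.88 ± 0.17 and 2.82 ± 0.10. Atf4 itself was at -1.68 ± 0.08, outside the 5 largest falls, and is named here after its value was seen. In this list 0 members were higher also at an unadjusted p under 0.05 and in the fit of 6 arrays, though 1 passed as higher with quantile normalization and with centring on reference genes. The lists above in which members rose and none fell likewise had 0 lower members by both. Other scalings gave some, however. With arrays centred on their medians 2 lymphocyte, 2 neuronal and glial, 1 complement and 1 collagen gene passed as lower. With quantile normalization 2 neuronal and glial genes did.

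The core of the response element, TGATGNAA on either strand, occurred in the promoters of 5 of 18 members with an entry (27.8%), against 4.51% of all genes. Upstream sequences are shown for Chac1, the member with the largest fall, at chr2:119350992-119351241 (plus strand), and Slc7a11, which has 2 matches, at chr3:50443614-50443863 (minus strand), both of GRCm38.p6 with matches in capitals.
Chac1: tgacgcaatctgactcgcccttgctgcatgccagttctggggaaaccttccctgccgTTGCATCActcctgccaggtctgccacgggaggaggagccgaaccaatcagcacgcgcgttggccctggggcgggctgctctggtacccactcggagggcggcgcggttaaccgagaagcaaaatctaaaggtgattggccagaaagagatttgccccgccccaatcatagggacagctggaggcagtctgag
Slc7a11: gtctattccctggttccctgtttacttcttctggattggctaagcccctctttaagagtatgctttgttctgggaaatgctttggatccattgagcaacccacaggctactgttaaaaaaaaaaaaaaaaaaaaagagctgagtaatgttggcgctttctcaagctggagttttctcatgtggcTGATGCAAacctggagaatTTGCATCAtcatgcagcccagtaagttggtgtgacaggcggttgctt

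Of 25 glutathione and antioxidant enzymes 7 rose and 15 fell, against 22.3% and 27.8% of all genes (median -0.44). The largest rises were Gpx3, given above, the transferase Gstt1 at 2.56 ± 0.09, the transferase Gstm2 at 1.44 ± 0.08 and the peroxidases Gpx7 at 1.62 ± 0.10 and Gpx8 at 1.09 ± 0.08. Among the falls, Nqo1, a quinone reductase, read 8.64, 8.61 and 8.82 on the 3T3-L1 arrays and 6.36, 6.18 and 6.21 on the PMEF arrays. Srxn1 (-2.30 ± 0.09), Hmox1, heme oxygenase (-1.82 ± 0.24), and Gclc, which starts glutathione synthesis (-1.80 ± 0.08), fell as well. The core letters of the antioxidant element, TGACNNNGC on either strand, were in 7 of 20 promoters of the list (35.0%), against 14% of all genes. Of the genes named here Srxn1 held these letters, and Nqo1, Slc7a11, Gstt1, Gstm2 and the peroxidases did not. Hmox1 and Gclc had no promoter entry and were not searched.

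Mdm2, the ubiquitin ligase that degrades p53, was far higher in 3T3-L1 cells than in any other group. It read 12.49, 12.51 and 12.40 on the 3T3-L1 arrays and 9.60, 9.51 and 9.45 on the PMEF arrays, so that the groups were far apart (-2.95 ± 0.08), with ES adipocytes at 9.40 ± 0.01 and eWAT at 8.01 ± 0.15. The nearest measured gene on each side of it on chromosome 10 fell too. Slc35e3, next to it, read 11.94, 11.99 and 11.84 on the 3T3-L1 arrays and 7.22, 7.11 and 7.31 on the PMEF arrays, and Cpm, a carboxypeptidase on the other side, read 7.73, 8.15 and 7.53 on the 3T3-L1 arrays and 4.46, 4.47 and 4.50 on the PMEF arrays. Of the 22 further genes on both sides, chosen for their position after the values were seen, 8 fell, 3 rose and 11 did not pass. Over all genes 27.8% fell and 22.3% rose. The falls among these further genes were smaller, with Cpsf6 at -0.54 ± 0.08, Rap1b at -0.50 ± 0.09, Cct2 at -0.57 ± 0.07 and Rab3ip at -1.10 ± 0.07. Lyz2, 4 measured genes from Mdm2, rose instead, as given above, and Irak3, a brake on innate signalling, rose by 3.34 ± 0.16.

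**Figure D5:**
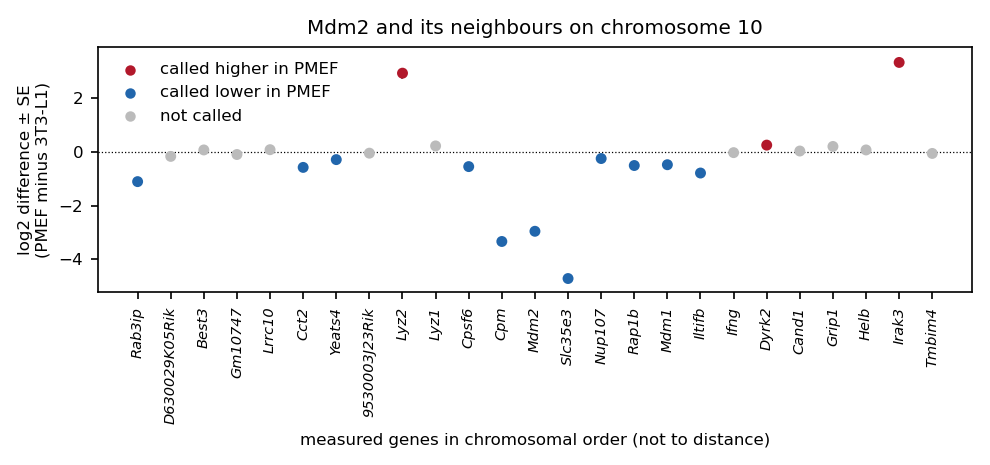
Log2 difference ± SE, PMEF minus 3T3-L1 adipocytes, of Mdm2 and the 12 measured genes on each side of it on chromosome 10, in order but not to distance. Cpm, Mdm2 and Slc35e3 form a trough from -2.95 to -4.71, and Lyz2 and Irak3 are the points far above 0.

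In the list of p53 pathway genes and cell cycle inhibitors, which includes Mdm2, 11 of 20 rose and 4 fell (median 0.48), or 11 of 19 and 3 without it. The p53 targets Phlda3 (2.36 ± 0.11), Zmat3 (2.05 ± 0.10) and Eda2r (1.82 ± 0.10) rose, and Gadd45a, which p53 and Atf4 both induce, fell by 2.88 ± 0.14. Cdkn2a, the Ink4a/Arf tumour suppressor, read 8.39, 8.32 and 8.48 on the 3T3-L1 arrays and 7.93, 7.84 and 8.11 on the PMEF arrays. It fell by 0.44 ± 0.12, was at -0.17 and did not pass with arrays centred on reference genes, and was well above eWAT (5.91 ± 0.23) in both cultures.

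Genes of division and replication moved both ways in PMEF adipocytes. Of 26 measured 14 rose and 7 fell, against 22.3% and 27.8% of all genes (median 0.33). Ccnd1, the cyclin that growth factors induce, read 8.32, 8.24 and 8.49 on the 3T3-L1 arrays and 10.62, 10.66 and 10.50 on the PMEF arrays. Ccnd3 (1.90 ± 0.07), Ccnb2 of mitosis (1.58 ± 0.13), Mki67 (1.08 ± 0.12) and Rrm2 (1.06 ± 0.12) also rose. In contrast Mcm2, a subunit of the replication helicase, read 9.21, 8.99 and 9.19 on the 3T3-L1 arrays and 7.09, 7.0 and 7.09 on the PMEF arrays, and Ccne2 (-0.99 ± 0.12) and Pcna (-0.95 ± 0.10) fell. For Top2a the probe sets disagreed, one at 0.44 and the other at -0.73, and both passed.

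Sex-linked transcripts set the cultures apart. Xist, the RNA made from the silent X chromosome of female cells, read 3.98, 4.15 and 4.02 on the 3T3-L1 arrays and 10.06, 10.06 and 10.07 on the PMEF arrays. The Y-linked Eif2s3y read 3.45, 3.67 and 3.30 on the 3T3-L1 arrays and 8.76, 8.50 and 8.45 on the PMEF arrays, and Uty and Kdm5d rose by 4.12 ± 0.09 and 2.14 ± 0.14. PMEF cultures thus held female and male transcripts on each of the 3 arrays, and 3T3-L1 cells held neither above background. In all 4 of 8 genes of this list rose and 3 fell, the latter being X-linked partners of Y genes such as Ddx3x (-0.58 ± 0.07) and Kdm6a (-0.51 ± 0.08). The tissue and ES arrays were high for Eif2s3y (9.30 ± 0.10 and 9.32 ± 0.09) and at background for Xist (3.92 ± 0.10 and 4.03 ± 0.20).

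Differences were also read along the chromosomes. Over the brighter genes with a position, 13252 in number, chromosome medians ran from -0.317 on chromosome 8 to 0.108 on chromosome 7, with chromosomes 6, 19, 15 and 16 next to the low end (-0.296, -0.290, -0.284 and -0.267). Windows of 21 neighbouring genes had medians between -0.63 and 0.41 at the 1st and 99th percentiles. The lowest lay on chromosome 6 from Bhlhe41 to Sinhcaf (-1.007), with 16 of 21 genes lower, and the highest was the Dlk1 region (1.544). These windows were picked for their values and are a description with no test.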

How the data were processed

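Total RNA extracted with TRIzol was labelled as biotinylated single-stranded cDNA from 300 ng with a whole-transcript kit and read on 12 Affymetrix arrays, per the labels' protocols. The deposited series table holds log2 values of 35556 probe sets between 1.11 and 13.48. How the authors corrected background and normalized is not given in the sources used here, so arrays were compared as deposited, and the number of arrays limits precision. Probe sets were named through the platform annotation: 21789 had 1 symbol, 1621 several and 12146 none, and only the first kind was used. For 999 genes with more than 1 probe set the one with the highest mean over 12 arrays was kept, which gave 19938 genes.

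All 4 groups entered 1 limma 3.58.1 fit (R 4.3.3, lmFit and eBayes, 8 residual degrees of freedom), and the contrast was PMEF minus 3T3-L1, called at a Benjamini-Hochberg adjusted p under 0.05. Replicate numbers occur in every group, but deviations of same-numbered arrays correlated at -0.137, -0.039 and -0.126, so they were not treated as pairs. Tested on simulated data for this comparison (19938 genes), the fit recovered 14%, 54%, 96% and 98% of 50 genes changed by 0.3, 0.5, 1 and 2 log2 units, with 6 false calls among 137. Far fewer genes differed there than in the real data (137 calls against 9985). The cutoff on p was therefore stricter, and these shares need not hold for the real arrays.

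The genes named are the 20 largest rises and falls of called genes with no overlap between the 2 groups (clones, receptor families and small RNAs left out), the 5 largest of each direction per gene list, fixed genes of which 19 of 23 were measured, list members that did not pass, any Hox gene or collagen, and cell type markers. The 43 gene lists come from textbook knowledge. Members and lists were chosen with earlier results of these data known. Alternatives covered normalization, centring, dim genes, probe sets, the arrays fitted, a replicate block, array weights, the variance model, a threshold test and each array left out. Promoter and microRNA sequences are RefSeq's (GRCm38.p6), matched by symbol.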

Additional observations from a re-analysis of the deposited data

How the results depend on the processing

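Of the 275 genes named, 184 kept direction and call under all 24 alternatives, and 252 did so under all but the test against a 2-fold threshold, which ended 85 calls. That threshold test called 1579 genes, 511 of them at least 2-fold lower, and 249 gene list members. Centring also moved counts: at least 2-fold lower genes numbered 1748 with arrays centred on their medians, 540 with centring on reference genes and 536 without Hprt among these, and the chromosome 6 window was -1.226, -0.739 and -0.735. Centring on reference genes, with and without Hprt, turned Cidec (0.08 and 0.08), Fabp4 (0.22 and 0.22) and Lpl (0.16 and 0.16). The mean of its probe sets turned Top2a (-0.14). The falls of Des (-0.13), Igf2bp3 (-0.20) and Rap1b (-0.23) did not pass with centring on reference genes. With 1 array left out, 9184 to 10306 genes were called, 1439 to 1487 at least 2-fold higher and 1006 to 1114 lower, 561 to 613 list members passed, and the chromosome 6 window lay between -1.087 and -0.881. Calls on Cidec, Lipe, Csf1r, Adgre1 and Top2a were lost without some single arrays. All 40 genes with the largest differences kept their call with any array left out. They were chosen by size and lack of overlap on these same arrays, so this is no separate check. A replicate block, with numbers that do not pair the samples, called 9832 genes. Apart from construction (fewer genes or a stricter threshold), the cause of these changes was not tested. In the simulation 14% of differences of 0.3 log2 units and 54% of those of 0.5 were recovered. Far fewer genes differed there than in the real data, so this does not give the share missed here.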

Other observations

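Runs of neighbouring genes other than the Dlk1 region also differed, as a description with no test. Among windows of 21 brighter genes that do not overlap, the lowest after the chromosome 6 window lay on chromosome 19 from Pi4k2a to Scd3 (median -0.779, 15 of 21 genes lower) and on chromosome 8 from Cpe to Lpar2 (-0.752, 15 lower). The highest after the Dlk1 window lay on chromosome 7 from Hdgfl3 to Me3 (1.018, 16 of 21 higher) and on chromosome 2 from Ly75 to Bbs5 (0.916, 11 higher and 8 lower).

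Genes often used as references were not all level between the cultures. Of 9 measured none rose and 4 fell with limma, against 22.3% and 27.8% of all genes, with 0 higher also at an unadjusted p under 0.05. The median was -0.20 (-0.42 to 0.07 under the other scalings). Gusb was at -1.0 and Sdha at -0.45, and Actb at 0.07 did not pass. With arrays centred on this list 4 rose and 2 fell.

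Of the 12146 probe sets with no gene symbol, 184 were at least 2-fold higher and 969 at least 2-fold lower in PMEF adipocytes. Of the 1621 with several symbols, 87 were higher and 83 lower. Among the 19938 genes 7.32% were at least 2-fold higher and 5.21% at least 2-fold lower. These probe sets were fitted on the deposited values only, and other scalings moved the count of at least 2-fold lower genes.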
